A study of Homo sapiens with 18 samples.

Results

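The genes described are 35 human genes of lipid synthesis and its control. They are 18 enzymes of cholesterol synthesis, 5 genes of the SREBP control system, 4 genes of sterol transport, uptake control and export, 7 enzymes of fatty acid synthesis, and the phosphatidate phosphatase LPIN1. They were taken by name from 35579 genes in the summed tables. All 35 were among the 16786 genes that passed the filter on low counts and were tested.

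All cells were U2OS, a human osteosarcoma line, grown in medium with serum, and 3 libraries of polyA RNA stand for each of 6 groups. In 2 groups, cells with integrated mCherry-EWS-FLI1 received 7.5 µM LY2835219, for 6 h or for 24 h. LY2835219 is abemaciclib, a drug that blocks CDK4 and CDK6, kinases of the cell cycle. The untreated groups carried mCherry-EWS-FLI1, mCherry-EWS-FLI1mut, mCherry-EWS(YS37)-FLI1 or mCherry alone. EWS-FLI1 is the chimeric transcription factor that marks Ewing sarcoma. The labels do not describe the EWS-FLI1mut change, whether a line was 1 clone or a pool, or a vehicle for the untreated cells. One protocol field of the labels gives other treatment times than the titles, the characteristics and the design text. The times of the last 3 are used.

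Cholesterol is built from acetyl-CoA through mevalonate, farnesyl diphosphate, squalene and lanosterol. Genes of this route are activated by the transcription factor SREBP-2 (from SREBF2), and genes of fatty acid synthesis mainly by SREBP-1 (from SREBF1). Both factors are held in the endoplasmic reticulum by SCAP and the INSIG proteins when sterols are plentiful. When sterols accumulate, the liver X receptors instead activate exporters such as ABCA1 and ABCG1, the ubiquitin ligase gene MYLIP and SREBF1.

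The libraries held between 16261034 and 20270637 estimated counts, and counts differed between libraries of 1 group by 4.02 to 10.9 times the variance of counting alone. Mitochondrial genes took 5.87% to 6.14% of counts at 6 h of LY2835219 and 5.71% to 6.41% at 24 h, against 4.14% to 4.96% in the 12 untreated libraries. The part of this difference in the results below was not tested. FLI1, which reports the transgene, averaged 247 ± 16.3 CPM (counts scaled to library size and TMM factors) in EWS-FLI1 cells, 642 ± 19.9 CPM in EWS-FLI1mut cells and 1019 ± 44.0 CPM in EWS(YS37)-FLI1 cells, against 0.547 ± 0.563 CPM in mCherry cells (SD, n = 3 each). It averaged 406 ± 21.8 CPM at 6 h and 236 ± 10.4 CPM at 24 h of LY2835219. The constructs were thus present at unequal RNA levels, and EWS-FLI1 RNA was itself higher at 6 h; the part of this in the results was not tested. Of 8 osteoblast and bone matrix markers, 4 reached 1 TPM (a level scaled to transcript length and library) in every group, among them COL1A1, SPARC and RUNX2. SP7, BGLAP, COL1A2 and IBSP averaged less in every group, and IBSP was at 0 in 4 of the 6 groups. The 5 adipocyte markers summed to at most 1.23 TPM in any library. The 5 epithelial markers, mostly KRT8 and KRT18, summed to 701 to 725 TPM at 6 h and 395 to 423 TPM at 24 h, against 776 to 832 TPM in untreated EWS-FLI1 cells. They summed to 747 to 773 TPM in EWS-FLI1mut cells and 715 to 739 TPM in EWS(YS37)-FLI1 cells, against 492 to 543 TPM in mCherry cells. The 8 bone markers summed to 3435 to 3690 TPM in EWS-FLI1 cells, 2310 to 2633 TPM in EWS-FLI1mut cells and 1943 to 2196 TPM in EWS(YS37)-FLI1 cells, against 2741 to 2811 TPM in mCherry cells. The part of these marker differences in the results was not tested.

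The 5 sequences below show the 250 bases before the RefSeq start of SREBF2, of the sterol enzymes MSMO1 and NSDHL, and of the fatty acid genes ELOVL6 and FADS1. SREBF2 is shown for its sterol regulatory element core, and the other 4 as examples of windows with many and with no CCAAT boxes, chosen after the counts of boxes were seen. They come from RefSeq on GRCh38.p14 and read 5′ to 3′ on the strand of the gene. Capitals mark CCAAT on either strand and, in SREBF2, the sterol regulatory element core.
SREBF2: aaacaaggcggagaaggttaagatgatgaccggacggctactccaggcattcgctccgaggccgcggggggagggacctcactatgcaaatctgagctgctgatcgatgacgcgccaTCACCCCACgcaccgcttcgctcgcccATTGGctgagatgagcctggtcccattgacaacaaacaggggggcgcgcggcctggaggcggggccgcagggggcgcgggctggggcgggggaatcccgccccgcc
MSMO1: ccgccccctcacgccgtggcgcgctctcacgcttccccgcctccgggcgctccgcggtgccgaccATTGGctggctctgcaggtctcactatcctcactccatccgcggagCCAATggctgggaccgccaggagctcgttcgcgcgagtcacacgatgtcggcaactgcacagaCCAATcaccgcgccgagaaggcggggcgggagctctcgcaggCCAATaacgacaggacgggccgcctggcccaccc
NSDHL: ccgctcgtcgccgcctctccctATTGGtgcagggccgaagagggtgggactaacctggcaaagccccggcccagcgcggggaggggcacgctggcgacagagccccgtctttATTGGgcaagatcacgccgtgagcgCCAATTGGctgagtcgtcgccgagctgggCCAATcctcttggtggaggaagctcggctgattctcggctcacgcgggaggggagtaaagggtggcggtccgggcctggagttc
ELOVL6: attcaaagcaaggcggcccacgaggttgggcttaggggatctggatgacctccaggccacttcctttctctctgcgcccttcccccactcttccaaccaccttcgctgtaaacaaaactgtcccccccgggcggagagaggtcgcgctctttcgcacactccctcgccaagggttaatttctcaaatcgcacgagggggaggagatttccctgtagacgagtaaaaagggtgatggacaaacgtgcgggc
FADS1: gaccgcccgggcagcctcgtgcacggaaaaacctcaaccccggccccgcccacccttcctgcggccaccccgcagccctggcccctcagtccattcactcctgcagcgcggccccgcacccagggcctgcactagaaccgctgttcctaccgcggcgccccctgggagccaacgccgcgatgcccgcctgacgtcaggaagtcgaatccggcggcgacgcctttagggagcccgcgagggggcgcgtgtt
They lie at chr22:41832855-41833104 (plus strand), chr4:165327419-165327668 (plus), chrX:152830813-152831062 (plus), chr4:110198616-110198865 (minus) and chr11:61817004-61817253 (minus), in the order of the lines. All of them overlap the longer GENCODE 29 span of their gene, and the FADS1 window also lies within the span of FADS2, on the other strand.

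A promoter window was found for 30 of the 35 genes. CCAAT, the box bound by NF-Y, a partner of SREBP, stood on either strand of the 250 bases in 13 of 15 sterol synthesis genes with a window (86.7%) and in 3 of 6 fatty acid genes (50%), against 4838 of 11879 tested genes (40.7%) and 32.0% of all windows. MSMO1 held 4 such boxes, and NSDHL 5, of which a pair overlap as ccaattgg. MVK held 5, and MVD, FDPS and EBP held 3 each, as did a window of IDI1. The relation of box counts to the changes below was not tested. The sterol enzymes CYP51A1 and PMVK and the fatty acid genes ELOVL6, FADS1 and FADS2 held none, whereas the fatty acid genes ACLY and SCD held 2 each. ACACA held 0, 1 or 2, depending on the window. The core TCACNCCAC occurred in SREBF2 alone of the 30, against 1.24% of tested genes and 0.883% of all windows. GGGCGG, the Sp1 box, stood in 29 of the 30 and in 71.7% of tested genes. A gene counted once if any of its windows held the motif. These matches describe letters in a window and no measurement of binding.

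The highest mean TPM over the 18 libraries belonged to FDPS, which makes farnesyl diphosphate (169), the desaturase FADS2 (117), the fatty acid synthase FASN (112) and the citrate lyase ACLY (110). The lowest belonged to ABCA1 (0.570), MYLIP (8.47), TM7SF2 (9.56) and ABCG1 (9.87). The sterol exporters and the uptake regulator were therefore the weakest expressed members per length, next to the sterol reductase TM7SF2. Values from here on, like those of FLI1 above, are CPM after TMM scaling, which serve to compare one gene between groups. The error given with a log2 fold change is its standard error, and that given with a level is the SD over 3 libraries. A gene is called at a Benjamini-Hochberg adjusted p under 0.05 over all genes tested.

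After 6 h of LY2835219, the pathway split. The early and late enzymes HMGCS1, MSMO1 and CYP51A1 and the feedback gene INSIG1 stood at about double to triple their untreated levels, while the sterol exporters ABCG1 and ABCA1 and the fatty acid genes FADS1 and ELOVL6 fell by 1.24 or more on the log2 scale. In all, 16 of the 35 genes rose and 13 fell. Of all genes tested, 64.9% were called at this time, 31.6% rising and 33.3% falling, so calls were common throughout. Calls with a log2 change of at least 0.5 numbered 18 of the 35, against 45.5% of all genes. In the sterol arm, 11 of 18 enzymes rose and 4 fell, with a median log2 fold change of 0.35 against -0.02 for all genes. In the fatty acid arm, 2 of 7 rose and 4 fell, with a median of -0.20. In bulk RNA, a change in the mix of cells and a change of RNA per cell cannot be told apart.

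These 6 h counts depend on the scale. The median log2 ratio of TPM at 6 h was -0.30 over the 13338 genes at 1 TPM or more in both groups, and the median log2 fold change of counts was -0.02 over all genes tested. With limma on log2(TPM + 1), 4 sterol enzymes rose and 6 fell, and over the 35 genes 6 rose and 18 fell. With offsets for transcript length in edgeR, 8 sterol enzymes rose and 4 fell. With no scaling factors, 7 rose and 7 fell, and over the 35 genes 10 rose and 19 fell. The rises of HMGCS1, MSMO1, CYP51A1, SQLE, INSIG1 and FASN were called under TPM and under length offsets too.

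**Figure D1:**
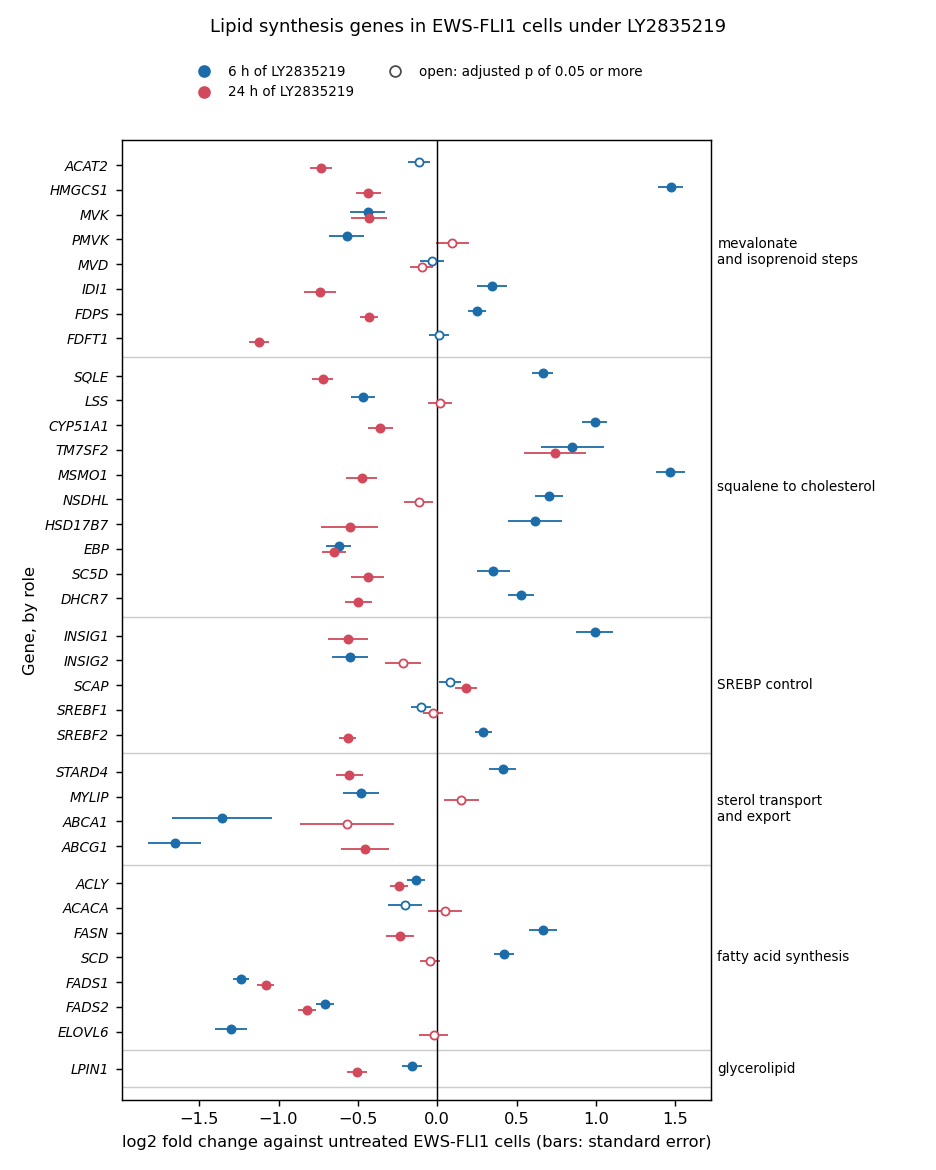
Log2 fold change of each gene (x axis, with standard error) in EWS-FLI1 cells after 6 h and 24 h of LY2835219 against untreated EWS-FLI1 cells, with genes grouped by role down the page. Filled points passed an adjusted p of 0.05; most sterol enzymes lie right of 0 at 6 h and left of 0 at 24 h, while FADS1 and FADS2 lie left at both times.

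Among the enzymes of the mevalonate and isoprenoid steps, HMGCS1 changed most. HMGCS1, which condenses acetyl-CoA units into the precursor of mevalonate (ENSG00000112972, chr5:43289395-43313512, minus strand), had 140, 111 and 118 CPM untreated, 326, 329 and 369 CPM at 6 h and 84.8, 92.5 and 95.5 CPM at 24 h. The 3 sets of libraries did not overlap: high at 6 h and lowest at 24 h. The change at 6 h was 1.47 ± 0.08 (adjusted p = 8.24e-14) and at 24 h -0.44 ± 0.08 (adjusted p = 7.39e-05), both against the same untreated libraries. The isomerase IDI1 had 21.1, 18.3 and 21.5 CPM untreated, 25.6, 23.6 and 28.2 CPM at 6 h and 11.7, 12.6 and 12.2 CPM at 24 h. FDPS had 115, 123 and 127 CPM untreated, 147, 149 and 139 CPM at 6 h and 92.0, 89.2 and 90.7 CPM at 24 h. Both genes were high at 6 h and low at 24 h without overlap. Their rises at 6 h were 0.34 ± 0.10 and 0.25 ± 0.06, but on the TPM scale the changes were -0.08 and -0.11 and were not called. The kinases of mevalonate and phosphomevalonate fell: MVK by 0.44 on the log2 scale and PMVK by 0.57, with 10.8, 11.5 and 12.2 CPM of PMVK at 6 h against 15.2, 16.8 and 19.3 CPM untreated. ACAT2, the thiolase at the entry of the route, the decarboxylase MVD and the squalene synthase FDFT1 were not called by counts (log2 -0.11, -0.03 and 0.01). In TPM, ACAT2 averaged 26.2 ± 2.15 untreated and 18.2 ± 2.26 at 6 h, and FDFT1 108 ± 6.18 and 87.2 ± 3.40, both lower with no overlap. MVD averaged 79.2 ± 9.67 TPM untreated and 85.8 ± 6.32 TPM at 6 h.

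From squalene to cholesterol, 8 of 10 enzymes rose at 6 h and 2 fell. MSMO1, the methyl oxidase that trims lanosterol products (chr4:165327623-165343160), had 38.9, 32.0 and 37.0 CPM untreated, 94.4, 96.6 and 107 CPM at 6 h and 25.2, 26.5 and 25.8 CPM at 24 h. CYP51A1, the lanosterol demethylase, had 101, 88.8 and 91.3 CPM untreated, 182, 182 and 197 CPM at 6 h and 67.7, 75.3 and 76.4 CPM at 24 h. SQLE, the squalene epoxidase and a rate-limiting step, had 132, 118 and 122 CPM untreated, 204, 194 and 192 CPM at 6 h and 76.6, 73.8 and 75.1 CPM at 24 h. In these 3 genes every 6 h library lay above and every 24 h library below all untreated ones. The changes at 6 h were 1.47 ± 0.09, 0.99 ± 0.08 and 0.67 ± 0.06 (adjusted p = 1.35e-12, 1.03e-10 and 3.66e-09).

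NSDHL, which removes the methyl groups oxidised by MSMO1, had 33.6, 30.1 and 35.7 CPM untreated, 55.8, 55.6 and 50.3 CPM at 6 h and 28.8 to 31.9 CPM over the 24 h libraries. Its rise at 6 h was 0.70 ± 0.09 (adjusted p = 2.21e-07), and the 24 h libraries overlapped the untreated ones. DHCR7, the last reductase of the route, had 87.9, 74.1 and 82.3 CPM untreated, 126, 118 and 109 CPM at 6 h and 62.9, 61.2 and 49.2 CPM at 24 h, again high at 6 h and low at 24 h without overlap. HSD17B7, a ketosteroid reductase, had 15.6, 9.29 and 10.3 CPM untreated, 16.5, 20.5 and 17.1 CPM at 6 h and 7.16, 7.92 and 8.92 CPM at 24 h (0.62 ± 0.17 at 6 h and -0.55 ± 0.18 at 24 h). The first untreated library was close to the 6 h range.

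The desaturase SC5D had 46.4, 37.9 and 38.4 CPM untreated, 52.0, 51.3 and 53.7 CPM at 6 h and 32.9, 25.9 and 31.8 CPM at 24 h. Its libraries did not overlap, and it rose by 0.35 ± 0.10 at 6 h, as did TM7SF2 by 0.85 ± 0.20. For NSDHL, DHCR7, HSD17B7, SC5D and TM7SF2 the TPM-scale change at 6 h was positive but not called (0.24, 0.10, 0.04, 0.04 and 0.16).

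The 2 enzymes of this stretch that fell at 6 h were EBP and LSS. EBP, the sterol isomerase, had 33.1, 37.1 and 36.9 CPM untreated, 23.9, 22.0 and 23.7 CPM at 6 h and 23.7, 22.7 and 21.8 CPM at 24 h, so that it was low at both times with no overlap. Its changes were -0.62 ± 0.08 and -0.65 ± 0.08. LSS, the cyclase that makes lanosterol, fell by 0.47 on the log2 scale at 6 h (83.7, 89.2 and 77.1 CPM, against 108, 117 and 120 CPM untreated) and was not called at 24 h (0.02 ± 0.07). The route thus did not move as a block at 6 h. By counts MVK, PMVK, LSS and EBP were lower, 11 sterol enzymes were higher and 3 were not called. The 4 falls were also called on the TPM scale and with length offsets.

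Some of these genes share sequence with other annotated genes. Cut into windows of 31 bases, their main transcript matched another gene over 89.9% of windows in CYP51A1, 69.5% in HSD17B7, 68.4% in ACAT2, 50.3% in FDPS and 26.6% in FDFT1. The overlapping gene of CYP51A1 averaged at most 0.302 CPM in any group and the pseudogene HSD17B7P2 at most 2.63 CPM. Reads assigned to these 5 genes are uncertain to that extent.

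In the control system at 6 h, INSIG1 and SREBF2 rose and INSIG2 fell. INSIG1, the sterol-sensing retention protein that is itself an SREBP target, had 23.5, 16.8 and 17.6 CPM untreated, 40.2, 34.5 and 40.4 CPM at 6 h and 14.8, 11.6 and 12.8 CPM at 24 h. It was highest at 6 h and lowest at 24 h, with no overlap, and changed by 0.99 ± 0.12 and -0.56 ± 0.12 (adjusted p = 1.07e-07 and 0.00065). INSIG2, its relative that is not an SREBP target, had 15.4, 13.2 and 16.0 CPM at 6 h against 22.5, 19.4 and 23.3 CPM untreated (-0.55 ± 0.12, adjusted p = 0.000215). With length offsets INSIG2 was -0.23 and not called (adjusted p = 0.216).

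SREBF2 had 378, 392 and 398 CPM untreated, 491, 479 and 459 CPM at 6 h and 269, 273 and 248 CPM at 24 h. Its rise of 0.29 ± 0.05 at 6 h (adjusted p = 3.67e-05) was of the opposite sign on the TPM scale (-0.12, adjusted p = 0.0647), whereas its fall at 24 h was of like size on both (-0.56 ± 0.05 and -0.59). SCAP, the escort of both SREBP proteins, was not called at 6 h (0.08 ± 0.07). It was called at 24 h with a small rise of 0.18 ± 0.07 and overlapping libraries, a call lost without any one of 5 of the 6 libraries.

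SREBF1 differed between its gene sum and its transcripts. The summed gene was not called at either time, at 122, 130 and 135 CPM untreated, 126, 121 and 114 CPM at 6 h and 126, 135 and 119 CPM at 24 h. On the TPM scale it averaged 95.2 ± 2.82 untreated, 49.7 ± 8.07 at 6 h and 69.8 ± 5.56 at 24 h, and limma called falls of 0.94 at 6 h (adjusted p = 2.34e-06) and 0.45 at 24 h (adjusted p = 0.00504). The protein-coding transcript SREBF1-201 averaged 30.8 ± 0.752 TPM untreated, 15.1 ± 0.864 TPM at 6 h and 27.1 ± 3.47 TPM at 24 h. Another protein-coding transcript, SREBF1-202, averaged 2.81 ± 1.46 TPM untreated, 6.62 ± 0.347 TPM at 6 h and 3.17 ± 0.708 TPM at 24 h. The share of SREBF1 counts on protein-coding transcripts was 85.6 ± 3.16% untreated, 73.0 ± 0.957% at 6 h and 82.3 ± 5.77% at 24 h. Assignment of reads among transcripts of 1 gene is an estimate of the authors' quantification.

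**Figure D2:**
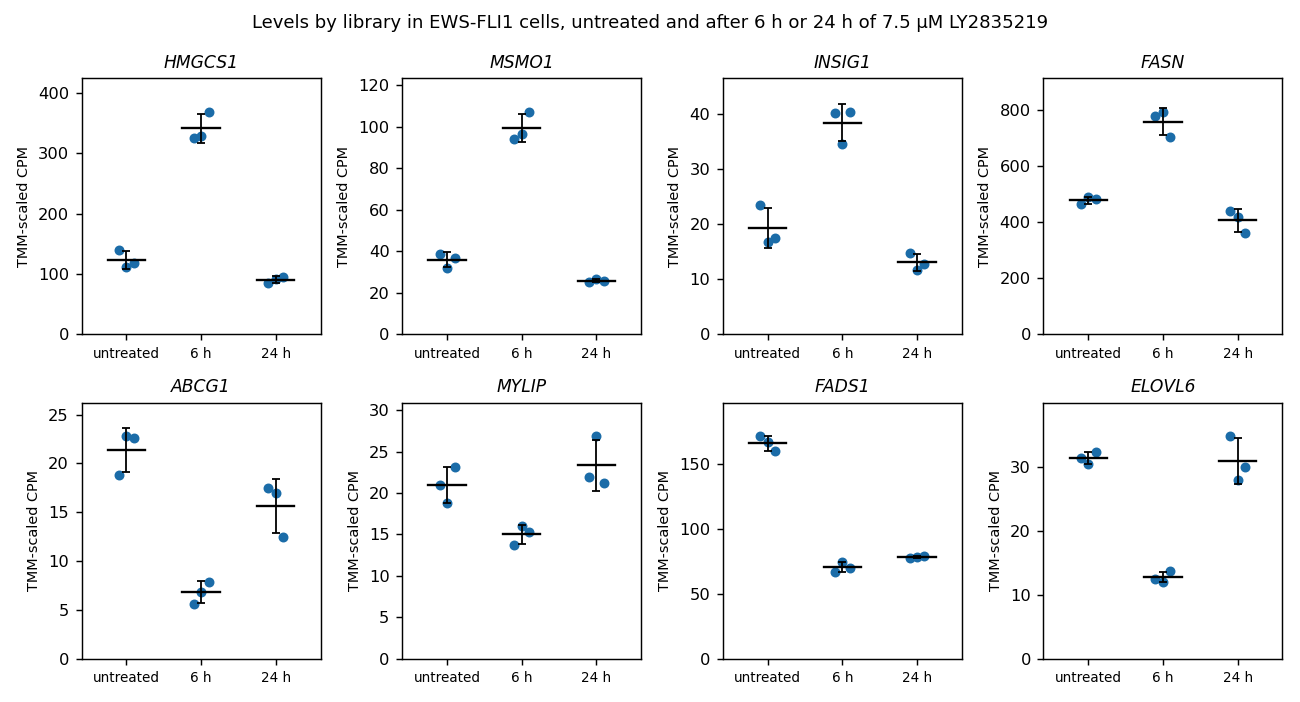
TMM-scaled CPM (y axis, from 0) in each library of EWS-FLI1 cells, untreated and after 6 h or 24 h of LY2835219, for HMGCS1, MSMO1, INSIG1, FASN, ABCG1, MYLIP, FADS1 and ELOVL6; bars are the mean and SD of 3 libraries. The top row peaks at 6 h, ABCG1, MYLIP and ELOVL6 are lowest at 6 h, and FADS1 is low at both times.

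The genes of sterol export and uptake control moved the other way at 6 h. ABCG1, which exports cholesterol and is a liver X receptor target (chr21:42199689-42297244), had 18.8, 22.8 and 22.6 CPM untreated, 5.63, 6.88 and 7.88 CPM at 6 h and 17.5, 17.0 and 12.4 CPM at 24 h. The 6 h libraries lay far below both other sets, with a change of -1.65 ± 0.17 (adjusted p = 5.82e-09). At 24 h the change was -0.45 ± 0.15, and this call was lost without the third 24 h library. ABCA1, the other exporter, had 3.61, 2.90 and 1.18 CPM at 6 h against 6.39, 6.30 and 7.04 CPM untreated (-1.36 ± 0.32, adjusted p = 0.000622), a gene of low level in all groups.

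At 24 h ABCA1 had 4.40, 5.01 and 3.89 CPM, between the other sets and not called against untreated cells. MYLIP, whose product marks lipoprotein receptors for degradation, had 21.0, 18.8 and 23.1 CPM untreated, 13.7, 16.0 and 15.3 CPM at 6 h and 21.9, 26.9 and 21.2 CPM at 24 h. It fell by 0.48 ± 0.11 on the log2 scale at 6 h and was not called at 24 h (0.15 ± 0.11). These 3 falls at 6 h were called on the TPM scale and with length offsets as well. STARD4, a carrier of cholesterol within the cell, moved with the enzymes instead: 71.8, 60.7 and 59.0 CPM untreated, 79.2, 81.3 and 94.4 CPM at 6 h and 43.8, 40.9 and 45.7 CPM at 24 h. Its rise of 0.41 ± 0.08 at 6 h was 0.23 and not called on the TPM scale, and its fall at 24 h was -0.55 ± 0.08 (adjusted p = 8.39e-06).

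The fatty acid genes divided into 2 opposite sets at 6 h. FASN (chr17:82078333-82098332) had 464, 489 and 481 CPM untreated, 778, 793 and 704 CPM at 6 h and 441, 417 and 360 CPM at 24 h. Its 6 h libraries stood well above the rest (0.67 ± 0.09, adjusted p = 4.37e-07). The stearoyl-CoA desaturase SCD rose by 0.42 ± 0.06 at 6 h, a value of 0.04 on the TPM scale, and was not called at 24 h (-0.05 ± 0.06). FADS1, the front-end desaturase of polyunsaturated fatty acids (chr11:61799625-61829318), had 172, 167 and 160 CPM untreated, 67.0, 75.0 and 69.8 CPM at 6 h and 78.1, 78.4 and 79.3 CPM at 24 h.

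FADS1 was therefore far below its untreated level at both times (-1.24 ± 0.05 and -1.08 ± 0.05, adjusted p = 2.06e-15 and 5.07e-14). FADS2, the partner desaturase whose gene overlaps FADS1 on the other strand, had 241, 269 and 282 CPM untreated, 170, 160 and 155 CPM at 6 h and 153, 153 and 142 CPM at 24 h. The strandedness of the libraries is not given in the sources used here, so reads of the overlap cannot be told apart by strand. ELOVL6, which extends palmitate, had 31.4, 30.4 and 32.3 CPM untreated, 12.5, 12.1 and 13.7 CPM at 6 h and 34.8, 27.8 and 30.0 CPM at 24 h. It was low at 6 h (-1.30 ± 0.10, adjusted p = 8.48e-11) and not called at 24 h (-0.02 ± 0.09). With length offsets the 6 h fall was smaller but still called (-0.68, adjusted p = 0.022). Its most abundant transcript by TPM was ELOVL6-207, a processed transcript of 204 bases, while the protein-coding ELOVL6-201 averaged 11.4 ± 0.613 TPM untreated, 3.37 ± 0.329 TPM at 6 h and 10.2 ± 2.00 TPM at 24 h (SD, n = 3 each).

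ACLY, which supplies cytosolic acetyl-CoA to both arms, fell by 0.13 ± 0.06 on the log2 scale at 6 h and by 0.24 ± 0.06 at 24 h; the first call was lost without any of 4 of the 6 libraries. ACACA, the carboxylase that makes malonyl-CoA, was not called at either time (-0.20 ± 0.11 and 0.05 ± 0.11). LPIN1, which forms diacylglycerol and coactivates lipid genes, fell by 0.16 ± 0.06 at 6 h, lost without any of 3 libraries, and by 0.50 ± 0.06 at 24 h. At 24 h LPIN1 held 64.4, 66.9 and 64.2 CPM, against 89.2, 95.7 and 92.2 CPM untreated, with no overlap, but on the TPM scale this fall was not called (-0.44, adjusted p = 0.0857).

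After 24 h, 2 of the 35 genes rose and 22 fell, against 48.0% of all genes called, 23.3% rising and 24.6% falling. A log2 change of at least 0.5 was called in 13 of the 35, against 26.1% of all genes. The median over the 35 was -0.44, against 0.03 for all genes. In the sterol arm 1 enzyme rose and 13 fell, and in the fatty acid arm 0 of 7 rose and 4 fell by edgeR, with the same counts at an unadjusted p under 0.05 and by DESeq2. With limma on TPM, 13 sterol enzymes fell and 0 rose, and with length offsets 12 fell and 0 rose, so that the split of the sterol arm at 24 h kept its direction on these scales. FDFT1, which commits farnesyl diphosphate to sterols, had the largest fall of the 35 at 24 h. It had 79.8, 72.3 and 77.9 CPM untreated, 78.5, 73.1 and 80.3 CPM at 6 h and 35.5, 34.0 and 36.2 CPM at 24 h. By counts this was a drop at 24 h alone of the 2 times (-1.12 ± 0.06, adjusted p = 1.05e-12), while its TPM were lower at 6 h too.

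IDI1 fell by 0.74 ± 0.10 on the log2 scale at 24 h. ACAT2 had 46.3, 44.5 and 46.8 CPM untreated, 41.3, 45.3 and 40.3 CPM at 6 h and 26.3, 26.6 and 30.0 CPM at 24 h (-0.73 ± 0.07 at 24 h). Both genes were thus well below the untreated range. The remaining falls of the sterol arm lay between -0.36 ± 0.08 (CYP51A1) and -0.72 ± 0.07 (SQLE). The rise was in TM7SF2 (0.74 ± 0.20, adjusted p = 0.00299), a low-level gene with 3.53, 4.20 and 6.23 CPM untreated, 7.95, 9.41 and 7.82 CPM at 6 h and 7.16, 7.43 and 8.76 CPM at 24 h. Protein-coding transcripts held 48.8 ± 20.8% of its counts untreated, 67.9 ± 5.94% at 6 h and 59.7 ± 11.9% at 24 h, and neither of its changes was called on the TPM scale. PMVK, MVD, LSS and NSDHL were not called at 24 h (log2 -0.12 to 0.10). The call of HSD17B7 was lost without the first untreated or the first 24 h library, and that of FASN without the second untreated or the third 24 h library.

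Set directly against 6 h, the 24 h libraries had 9 of the 35 genes higher and 18 lower, against 62.9% of all genes called, 32.6% rising and 30.3% falling. A log2 change of at least 0.5 was called in 21, against 42.9% of all genes. Among the sterol enzymes 2 rose and 12 fell, with a median of -0.81 against 0.05 for all genes. The largest falls were in MSMO1 (-1.94 ± 0.09, adjusted p = 2.51e-14), HMGCS1 (-1.91 ± 0.08, adjusted p = 2.36e-15) and INSIG1 (-1.55 ± 0.12, adjusted p = 1.31e-10). ELOVL6 and ABCG1 rose most (1.27 ± 0.10 and 1.20 ± 0.17), followed by ABCA1 (0.79 ± 0.32), PMVK (0.67 ± 0.11) and MYLIP (0.64 ± 0.11). The ABCA1 call was lost without any of 3 libraries. In the fatty acid arm 3 rose and 2 fell, 5 and 2 with no scaling factors, 4 and 1 with limma on TPM, and 1 and 4 with the size factors of DESeq2. With no scaling factors, 5 sterol enzymes rose and 12 fell, and over the 35 genes 16 rose and 17 fell, while the median of all genes was then 0.31. On the TPM scale LPIN1 was higher at 24 h than at 6 h by 0.14, opposite in sign to its counts (-0.35 ± 0.06).

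The arms were also compared as means of log2(CPM + 0.5) over their genes, with no test. The sterol arm stood at 5.44 ± 0.0683 untreated, 5.77 ± 0.00920 at 6 h and 5.06 ± 0.0108 at 24 h (SD, n = 3 each). The fatty acid arm stood at 7.57 ± 0.0185 untreated, 7.22 ± 0.0518 at 6 h and 7.23 ± 0.0921 at 24 h. By TMM-scaled counts, the sterol arm was thus above its untreated level at 6 h and below it at 24 h. The fatty acid arm was lower at both times by about the same amount. The 6 h rise of the sterol arm depends on the scale. With limma on TPM, 4 of its enzymes rose and 6 fell at 6 h, and with no scaling factors 7 rose and 7 fell. The mean log2 fold change of the sterol arm exceeded that of the fatty acid arm by 0.69 at 6 h, by 0.47 on the TPM scale, by 0.48 with length offsets and by 0.55 as a difference of medians. At 24 h the difference of means was -0.04, within the spread between libraries. The difference of medians was -0.20, a measure for which no spread between libraries was computed.

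**Figure D3:**
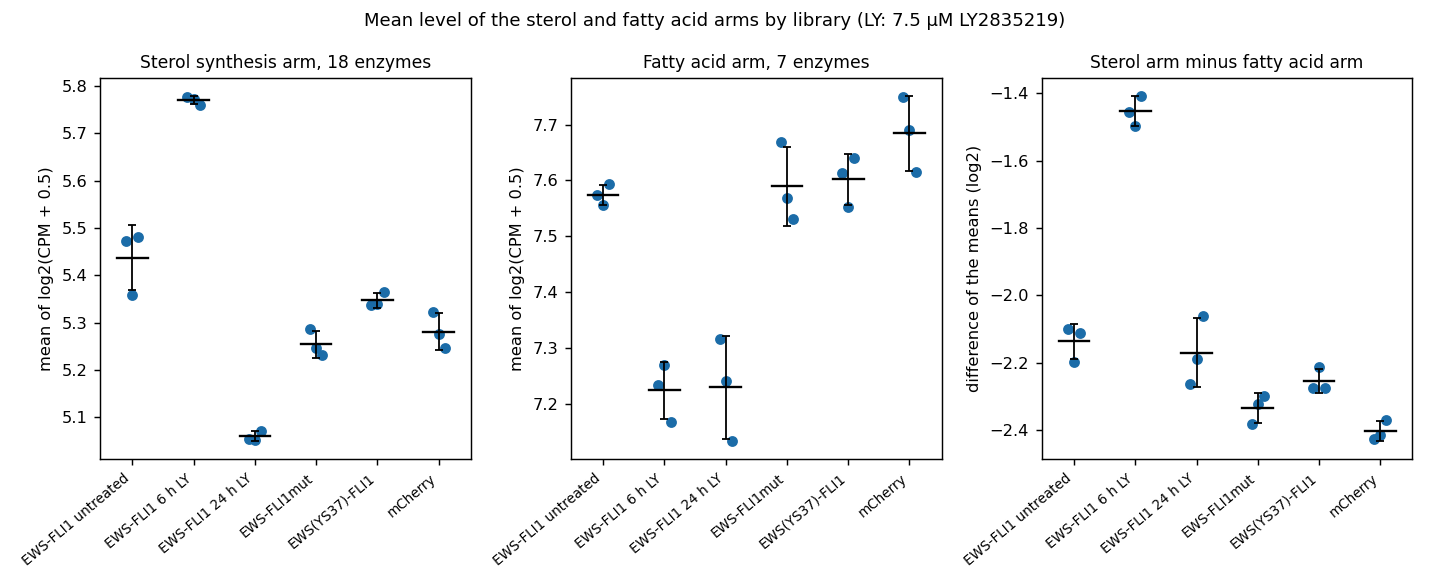
Mean log2(CPM + 0.5) over the 18 sterol synthesis enzymes, over the 7 fatty acid enzymes, and their difference (y axes), for each library of the 6 groups, with the group mean. The sterol arm is highest at 6 h and lowest at 24 h of LY2835219, and the fatty acid arm is lower at both times than in untreated EWS-FLI1 cells.

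The other genes of both pathways moved in both directions. Of 19 tested further sterol genes, 9 rose and 6 fell at 6 h and 7 rose and 4 fell at 24 h. Of all genes tested, 64.9% were called at 6 h and 48.0% at 24 h. NPC1, which moves cholesterol out of lysosomes, rose at both times (1.25 ± 0.09 and 0.70 ± 0.09), and the lysosomal lipase gene LIPA rose at 24 h (0.79 ± 0.09). GGPS1, which draws farnesyl diphosphate into protein prenylation, and NR1H3, the gene of a liver X receptor, fell at 6 h (-1.02 ± 0.13 and -0.66 ± 0.16). Of 20 further fatty acid and glycerolipid genes, 2 rose and 8 fell at 6 h and 5 rose and 6 fell at 24 h, against the same shares of all genes. ACSL4, which activates polyunsaturated fatty acids, rose at 6 h (1.69 ± 0.08), and the desaturase SCD5 fell (-1.41 ± 0.08). ACACB fell by 0.79 ± 0.19 on the log2 scale, but was 0.33 with length offsets and not called.

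Between constructs in untreated cells the differences were smaller. EWS-FLI1 cells against mCherry cells had 9 of the 35 genes higher and 4 lower, against 21.1% of all genes called, 11.1% rising and 9.95% falling. Changes of at least 0.5 were called in 2, against 6.31% of all genes. Of the sterol enzymes 7 of 18 rose and 0 fell, with a median log2 fold change of 0.17. At an unadjusted p under 0.05 in edgeR 9 rose and 1, EBP, fell, and DESeq2 called 8 and 0. In the fatty acid arm 0 of 7 rose and 2 fell (0 and 2 also unadjusted and by DESeq2). With limma on TPM and with length offsets, 6 of the 35 genes rose and 0 fell, 5 of them in the sterol arm each time, and no fatty acid gene was called. The upper-quartile and unscaled fits called 7 sterol enzymes higher and 1 lower.

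The regulator SREBF2 stood out in level: 378, 392 and 398 CPM in EWS-FLI1 cells, against 304, 275 and 290 CPM in mCherry cells, with no overlap (0.43 ± 0.05, adjusted p = 3.35e-06). CYP51A1 had 101, 88.8 and 91.3 CPM in EWS-FLI1 cells, against 69.8, 64.8 and 62.4 CPM in mCherry cells (0.51 ± 0.08, adjusted p = 6.58e-05). MVD, the mevalonate decarboxylase, had 55.7, 57.5 and 61.4 CPM in EWS-FLI1 cells, against 43.0, 40.3 and 39.4 CPM in mCherry cells (0.51 ± 0.08, adjusted p = 3.39e-05). All libraries of these 3 genes were higher in EWS-FLI1 cells. SQLE (0.42 ± 0.07), MSMO1 (0.42 ± 0.10), SC5D (0.38 ± 0.10), NSDHL (0.31 ± 0.09) and FDFT1 (0.24 ± 0.06) rose as well, and so did LPIN1 (0.31 ± 0.06).

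The falls were in ABCG1 (-0.47 ± 0.14), ELOVL6 (-0.42 ± 0.09), SREBF1 (-0.31 ± 0.06) and FADS1 (-0.15 ± 0.05). ELOVL6 had 31.4, 30.4 and 32.3 CPM in EWS-FLI1 cells, against 38.0, 43.4 and 44.2 CPM in mCherry cells, with no overlap by counts. Its TPM overlapped, at 44.8 ± 3.93 in EWS-FLI1 cells and 51.8 ± 12.2 in mCherry cells. The fall was called neither with limma on TPM nor with length offsets. The calls of NSDHL, SC5D, ABCG1 and FADS1 were each lost when 1 of several single libraries was left out. HMGCS1 and INSIG1, both called at each time of LY2835219, were not called here (0.19 ± 0.08 and 0.16 ± 0.12).

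**Figure D4:**
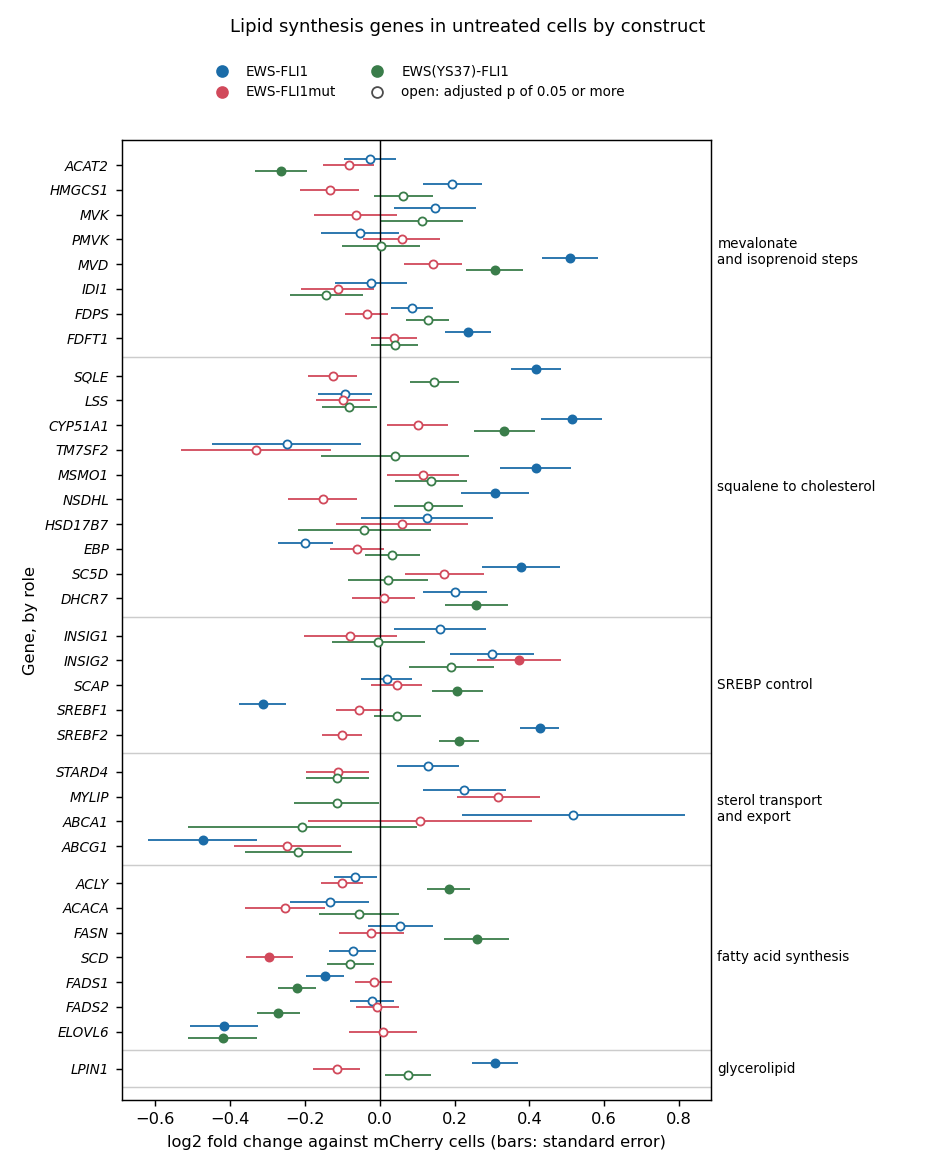
Log2 fold change of each gene (x axis, with standard error) in untreated cells with EWS-FLI1, EWS-FLI1mut or EWS(YS37)-FLI1 against mCherry cells, with genes grouped by role. Filled points passed an adjusted p of 0.05; the EWS-FLI1 points of SREBF2, CYP51A1, MVD, SQLE and MSMO1 lie at 0.42 to 0.51, and the EWS-FLI1mut points are mostly open.

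EWS-FLI1mut cells differed from mCherry cells in 2 of the 35 genes, against 7.15% of all genes called, 3.53% rising and 3.62% falling. Neither change reached 0.5 on the log2 scale, a size called in 1.76% of all genes. INSIG2 rose (0.37 ± 0.11, adjusted p = 0.0457), a call lost without any 1 of the 6 libraries. SCD fell, with 366, 336 and 312 CPM in EWS-FLI1mut cells against 447, 417 and 381 CPM in mCherry cells (-0.30 ± 0.06, adjusted p = 0.00498). No enzyme of the sterol arm was called by edgeR, 0 of 18 also at an unadjusted p under 0.05 and by DESeq2, and their log2 fold changes ran from -0.33 to 0.17. No member was called with limma on TPM, and 1, a fall, with length offsets.

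EWS-FLI1 and EWS-FLI1mut cells were also compared directly, in libraries that both enter the comparisons with mCherry through the same fit. In EWS-FLI1 cells 10 of the 35 genes were higher and 2 lower, against 16.3% of all genes called, 8.78% rising and 7.51% falling. Changes of at least 0.5 were called in 2, against 5.75% of all genes. Of the sterol enzymes 7 rose and 0 fell; 9 and 0 were under an unadjusted p of 0.05 in edgeR, and DESeq2 called 7 and 0. SREBF2 had 378, 392 and 398 CPM in EWS-FLI1 cells against 282, 264 and 264 CPM in EWS-FLI1mut cells (0.53 ± 0.05, adjusted p = 2.01e-07). SQLE had 132, 118 and 122 CPM in EWS-FLI1 cells against 92.4, 80.7 and 82.0 CPM in EWS-FLI1mut cells (0.54 ± 0.07, adjusted p = 2.7e-06). Neither gene had overlapping libraries.

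NSDHL (0.46 ± 0.09), LPIN1 (0.42 ± 0.06), CYP51A1 (0.41 ± 0.08), MVD (0.37 ± 0.07), HMGCS1 (0.33 ± 0.08), MSMO1 (0.30 ± 0.09), SCD (0.22 ± 0.06) and FDFT1 (0.20 ± 0.06) were higher in EWS-FLI1 cells too, and ELOVL6 (-0.43 ± 0.09) and SREBF1 (-0.26 ± 0.06) lower. Leaving out the first EWS-FLI1 library lost MSMO1, FDFT1, SCD and HMGCS1, and 8 of the 35 genes were then called. With limma on TPM 5 of the 35 rose and 0 fell, and with length offsets 6 rose and 0 fell; 4 of each were sterol enzymes. With no scaling factors 8 rose and 3 fell.

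EWS(YS37)-FLI1 cells against mCherry cells had 7 of the 35 genes higher and 4 lower, against 21.7% of all genes called, 11.5% rising and 10.2% falling, and none reached 0.5, against 8.20% of all genes. CYP51A1 (0.33 ± 0.08), MVD (0.31 ± 0.08), DHCR7 (0.26 ± 0.08), FASN (0.26 ± 0.09), SREBF2 (0.21 ± 0.05), SCAP (0.21 ± 0.07) and ACLY (0.18 ± 0.06) rose. ELOVL6 (-0.42 ± 0.09), FADS2 (-0.27 ± 0.06), ACAT2 (-0.26 ± 0.07) and FADS1 (-0.22 ± 0.05) fell. SREBF2 had 339, 321 and 346 CPM in EWS(YS37)-FLI1 cells against 304, 275 and 290 CPM in mCherry cells, a small step with no overlap. FADS2 had 220, 211 and 235 CPM in EWS(YS37)-FLI1 cells against 269, 266 and 268 CPM in mCherry cells, also with no overlap.

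The calls for EWS(YS37)-FLI1 changed with the scale. With limma on TPM 0 of the 35 rose and 1 fell, with length offsets 3 were called and none was a sterol enzyme, and with no scaling factors 3 rose and 4 fell. The calls of SCAP, ACLY, FASN and DHCR7 were lost together without either of 2 mCherry libraries or either of 2 EWS(YS37)-FLI1 libraries.

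In EWS-FLI1 cells against EWS(YS37)-FLI1 cells, 11 of the 35 genes were higher and 4 lower, against 31.1% of all genes called, 14.8% rising and 16.3% falling. No called gene of the 35 reached 0.5, a size called in 12.0% of all genes. ABCA1 had the highest change (0.72) but was not called, at 6.57 ± 0.403 CPM in EWS-FLI1 cells against 3.98 ± 0.869 CPM in EWS(YS37)-FLI1 cells. In the sterol arm 6 rose and 1 fell. SC5D had 46.4, 37.9 and 38.4 CPM in EWS-FLI1 cells against 27.2, 37.4 and 31.2 CPM in EWS(YS37)-FLI1 cells (0.36 ± 0.10). MYLIP had 21.0, 18.8 and 23.1 CPM in EWS-FLI1 cells against 16.2, 15.2 and 18.2 CPM in EWS(YS37)-FLI1 cells (0.34 ± 0.11). The groups were close in both genes, although no library crossed over.

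MSMO1 (0.28 ± 0.09), SQLE (0.27 ± 0.07), FADS2 (0.25 ± 0.06), ACAT2 (0.24 ± 0.07), STARD4 (0.24 ± 0.08), LPIN1 (0.23 ± 0.06), SREBF2 (0.22 ± 0.05), FDFT1 (0.20 ± 0.06) and MVD (0.20 ± 0.07) rose, and SREBF1 (-0.36 ± 0.06), ACLY (-0.25 ± 0.06), EBP (-0.23 ± 0.07) and SCAP (-0.19 ± 0.07) fell. Without the first EWS-FLI1 library 8 of the 35 were called. With limma on TPM 8 rose and 0 fell, and with length offsets 7 rose and 1 fell. Because FLI1 RNA also differed between these constructs, as given above, a difference in level and a difference in sequence of the construct cannot be told apart.

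The order of the untreated groups in SREBF2 was EWS-FLI1, EWS(YS37)-FLI1, mCherry and EWS-FLI1mut, at 389 ± 10.5, 335 ± 13.4, 290 ± 14.5 and 270 ± 10.6 CPM (SD, n = 3 each). All neighbours but the last pair were called as different (-0.10 ± 0.05, adjusted p = 0.295, for EWS-FLI1mut against mCherry). The means of the sterol arm followed the same order, at 5.44 ± 0.0683, 5.35 ± 0.0155, 5.28 ± 0.0386 and 5.25 ± 0.0282 on the log2(CPM + 0.5) scale. EWS-FLI1mut and mCherry were not apart beyond their spread. The EWS-FLI1 and EWS(YS37)-FLI1 libraries overlapped, with the second EWS-FLI1 library at 5.3585 and the third EWS(YS37)-FLI1 library at 5.3651. The fatty acid arm had 7.57 ± 0.0185 with EWS-FLI1, 7.60 ± 0.0453 with EWS(YS37)-FLI1, 7.59 ± 0.0716 with EWS-FLI1mut and 7.68 ± 0.0671 with mCherry, with the mCherry libraries above the EWS-FLI1 ones and overlapping the other groups.

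The sterol arm exceeded the fatty acid arm in mean log2 fold change by 0.28 for EWS-FLI1 against mCherry, 0.15 for EWS(YS37)-FLI1 against mCherry and 0.07 for EWS-FLI1mut against mCherry, comparisons that share the mCherry libraries. The direction for EWS-FLI1mut did not hold on other scales, at -0.00245 on the TPM scale and -0.0253 as a difference of medians. The sterol arm exceeded the fatty acid arm by 0.20 for EWS-FLI1 against EWS-FLI1mut and 0.12 for EWS-FLI1 against EWS(YS37)-FLI1. All 5 are below the 0.69 found at 6 h of LY2835219.

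**Figure D5:**
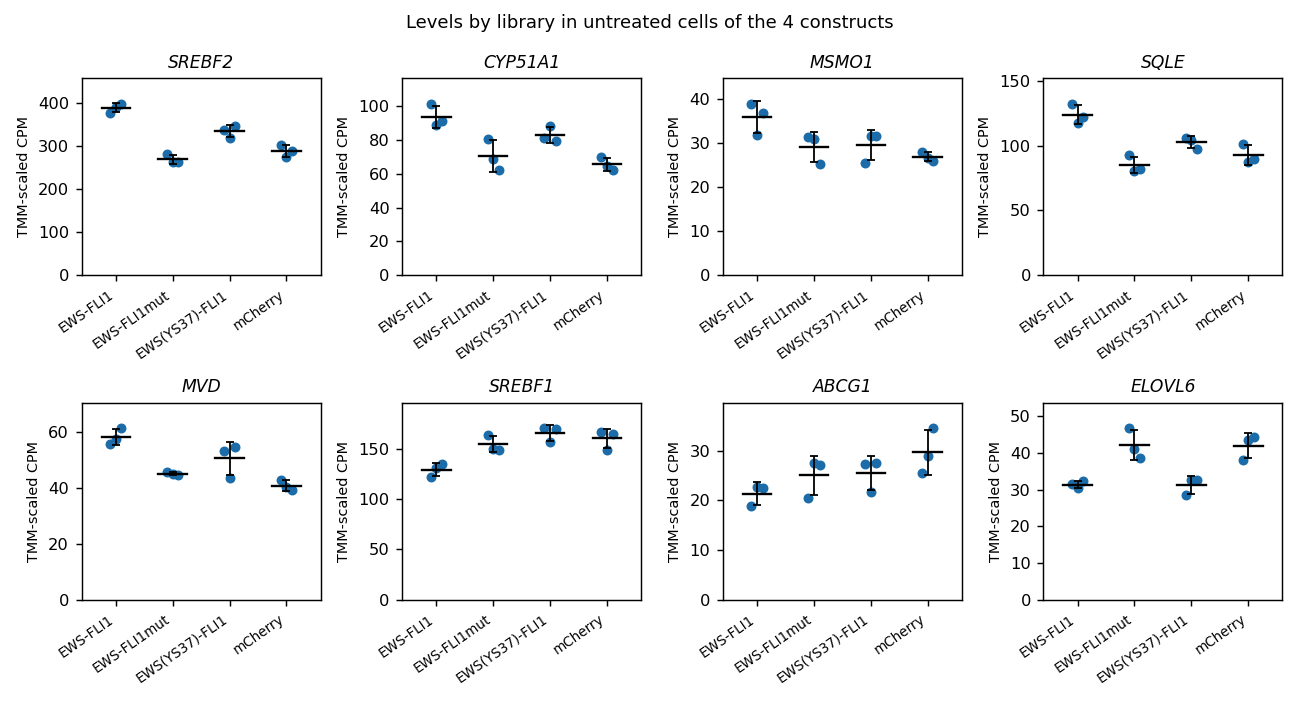
TMM-scaled CPM (y axis, from 0) in each untreated library by construct, with the mean and SD of 3 libraries. SREBF2 is highest with EWS-FLI1, at 378 to 398, and lowest with EWS-FLI1mut, at 264 to 282, and ELOVL6 is lower with EWS-FLI1 and EWS(YS37)-FLI1 than with mCherry.

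Of the further sterol genes in untreated cells, NPC1 was lower in EWS-FLI1 cells than in mCherry cells (-0.44 ± 0.09), EWS-FLI1mut cells (-0.42 ± 0.09) and EWS(YS37)-FLI1 cells (-0.76 ± 0.09), and so was LIPA (-0.47 ± 0.09, -0.32 ± 0.09 and -0.71 ± 0.09). Of the 19 tested, 3 rose and 4 fell in EWS-FLI1 against mCherry cells, 2 and 3 against EWS-FLI1mut cells and 2 and 4 against EWS(YS37)-FLI1 cells. Of all genes tested, 21.1%, 16.3% and 31.1% were called in these comparisons, in that order. Of the 20 further fatty acid and glycerolipid genes, 3 rose and 3 fell in EWS-FLI1 against mCherry cells and 3 and 4 against EWS-FLI1mut cells. Against EWS(YS37)-FLI1 cells 6 of them fell and the other 14 were not called. These counts stand against the same shares of all genes. The citrate carrier SLC25A1 was lower in EWS-FLI1 cells in each case (-0.37 ± 0.07, -0.33 ± 0.07 and -0.31 ± 0.07). Among the 20, the lowest log2 fold change against mCherry was -1.12 with EWS-FLI1 and -1.94 with EWS(YS37)-FLI1, called or not, in genes not named here.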

How the data were processed

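The authors deposited 1 table of estimated counts, effective lengths and TPM per library, with 188753 transcripts each, per the file headers. Quantification with kallisto 0.46, base calling with CASAVA and the build hg38 are named in the submitters' processing notes. The transcript index, strandedness and the library kit of each sample are not given in the sources used here. Estimated counts were summed per gene by transcript ID (169797 transcripts matched GENCODE 29) and rounded. The 2.59% to 2.74% of counts that matched no gene there stayed out. The deposited TPM were summed in the same way.

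All 18 libraries entered 1 fit in edgeR 4.0.16 (R 4.3.3) with TMM scaling and its filter on low counts, and p-values of the quasi-likelihood test were adjusted by Benjamini-Hochberg over 16786 genes. The 8 comparisons each set 3 libraries against 3. The script was tested on simulated data. Alternatives were DESeq2 1.42.0, its size factors, upper-quartile or no scaling, other filters, length offsets, limma 3.58.1 on log2(TPM + 1), fits of the compared groups alone, a replicate block and leaving out each library.

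The labels call the libraries biological replicates but do not name separately made lines, so p-values measure the spread between these samples. No libraries were counted as duplicates. In each comparison, called genes with no overlap and a log2 change of at least 0.5 were given by library, others by change or range. In the other pathway lists, some called genes were named, and the largest changes of a list were not always among them. The 35 genes and the further lists were chosen with earlier results of these data known.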

Additional observations from a re-analysis of the deposited data

Results flagged for a closer look

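Against the shared untreated libraries, 13 of the 35 genes were called in opposite directions at 6 h and 24 h of LY2835219, and the change between the times was itself called in edgeR. Of all genes tested, 64.9% were called at 6 h, 48.0% at 24 h and 62.9% between the times. How many of all genes reversed in this way was not counted, so the count of 13 does not set these genes apart. In the sterol arm the log2 fold change of 24 h against 6 h was -1.94 for MSMO1, -1.91 for HMGCS1, -1.39 for SQLE, -1.35 for CYP51A1, -1.17 for HSD17B7, -1.08 for IDI1, -1.02 for DHCR7, -0.79 for SC5D and -0.68 for FDPS. Among the control and transport genes it was -1.55 for INSIG1, -0.97 for STARD4 and -0.86 for SREBF2. In the fatty acid arm it was -0.90 for FASN. All 13 were higher at 6 h and lower at 24 h than in untreated cells by count, with the opposite sign at 6 h on the TPM scale for IDI1, FDPS and SREBF2.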

How the results depend on the processing

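Of 133 called results of the 35 genes over 8 comparisons, DESeq2 kept 129 in direction and call, its size factors 128, upper-quartile factors 130, a filter of 1 CPM 131, no filter 130, the compared groups alone 127 and no scaling 120. Length offsets kept 87 and limma on log2(TPM + 1) kept 80, with 1 and 4 of opposite sign. The cause of these losses was not tested.

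Opposite in sign at 6 h on the TPM scale were IDI1 (-0.0832), FDPS (-0.11), SREBF2 (-0.12) and ACACB (0.0447, and 0.33 with offsets). For 24 h against 6 h these were INSIG2 with offsets (-0.0191) and LPIN1 on TPM (0.14), and for EWS(YS37)-FLI1 against mCherry NPC1 on TPM (-0.0204).

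The number of the 35 genes called for EWS-FLI1 against mCherry was 13, but 6 with offsets and 6 with limma. For EWS-FLI1mut against mCherry it was 2, but 1 and 0. For EWS(YS37)-FLI1 against mCherry it was 11, but 3 and 1, and 7 with no scaling. For EWS-FLI1 against EWS-FLI1mut it was 12, but 6 and 5, and against EWS(YS37)-FLI1 15, but 8 and 8. Without single libraries the counts were 27 to 29 at 6 h, 22 to 23 at 24 h, 25 to 28 between the times, 10 to 15 for EWS-FLI1, 1 to 2 for EWS-FLI1mut and 7 to 12 for EWS(YS37)-FLI1 against mCherry, 8 to 14 against EWS-FLI1mut and 8 to 15 against EWS(YS37)-FLI1.

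The sterol minus fatty acid difference in mean log2 fold change at 6 h was 0.48 with offsets, 0.47 with limma and 0.55 by medians. It was -0.20 by medians at 24 h, and -0.60 with offsets and -0.58 with limma between the times. For EWS-FLI1 against mCherry it was 0.22 with offsets, 0.21 with limma and 0.22 with LPIN1 in the fatty acid arm, and against EWS-FLI1mut 0.15 with LPIN1 there. For EWS(YS37)-FLI1 against mCherry it was 0.12 and 0.11. For EWS-FLI1mut against mCherry it was 0.000354 with offsets, -0.00245 with limma and -0.0253 by medians. Without single libraries it spanned 0.66 to 0.71 at 6 h, -0.10 to 0.0045 at 24 h and -0.79 to -0.68 between the times.

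Over all genes, calls fell from 3536 to 1698 with offsets and 1679 with limma for EWS-FLI1 against mCherry, from 1200 to 360 and 384 for EWS-FLI1mut, from 3645 to 1964 and 1907 for EWS(YS37)-FLI1, from 2734 to 1262 and 1276 for EWS-FLI1 against EWS-FLI1mut, and from 5223 to 3001 and 2990 against EWS(YS37)-FLI1. The EWS-FLI1mut count was 667 to 766 without any one of 5 of the 6 libraries, and within 1.5 times of 1200 without the first mCherry library. With no scaling the median of all genes was -0.27 at 6 h and 0.31 between the times, and at 6 h 3535 rose and 7450 fell against 5304 and 5586 with TMM. On TPM at 6 h 2480 rose and 6974 fell.

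Same-numbered libraries did not deviate together (r of -0.0377 to 0.0621), and the labels tie no numbers across groups, so the numbers were not taken as pairs. With the number as a replicate block, 29 of the 35 genes were called at 6 h, 24 at 24 h, 28 between the times, 13 for EWS-FLI1, 2 for EWS-FLI1mut and 12 for EWS(YS37)-FLI1 against mCherry, 12 against EWS-FLI1mut and 16 against EWS(YS37)-FLI1, and no called gene of the 133 lost its call.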
